A study of Mus musculus with 8 samples.

Results

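The 10 genes described here encode the receptors of the interleukin-6 (IL-6) cytokine family and the signalling chain below them, from the janus kinases to STAT3. They were chosen by gene symbol in the deposited count table, and each of the 10 symbols was found among the 56953 genes listed. The members were the receptor chains Il6ra, Il6st, Osmr, Lifr and Il11ra1, the kinases Jak1 and Jak2, the transcription factor Stat3, and Socs3 and Bcl3, both known STAT3-responsive genes. Each was measured by RNA-seq in the brown adipose tissue (BAT) of 4 control mice (CTR) and 4 mice with cancer-associated cachexia (CAC), with 1 library per mouse. All 8 mice were wild-type C57BL/6J, male or female, 8 to 10 weeks old at injection and housed at room temperature. CAC mice received 3000000 Lewis lung carcinoma (LLC) cells, a mouse lung tumour line, under the skin of the flank in PBS, and CTR mice received PBS alone. Mice were followed for up to 21 days, and the CAC group held only mice in which a tumour had grown. The sex of each mouse is not stated in the sources used here.

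The IL-6 family cytokines share gp130, the product of Il6st, as their signalling chain. Each ligand first meets its own partner chain: IL-6 binds the IL-6 receptor (Il6ra), IL-11 binds the product of Il11ra1, and leukaemia inhibitory factor and oncostatin M use the products of Lifr and Osmr. The assembled receptor activates janus kinases, which phosphorylate STAT3, and STAT3 then enters the nucleus and induces genes that include its own inhibitor Socs3. The pathway is known in cachexia for the acute-phase response and the loss of muscle and fat. Phosphorylation is not read by RNA-seq, so the values below are transcript levels only.

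STAT proteins bind a palindrome whose outer letters are TTCNNNGAA, which reads the same on both strands. The 250 bases before RefSeq starts were searched for it in promoter windows (GRCm38.p6), in which all 10 members matched with 12 windows. These starts can differ from those of the GENCODE gene spans given below. The windows of Osmr, Lifr, Il11ra1 and Socs3 lie inside those spans, and those of Jak1 and Bcl3 lie partly inside. The palindrome was found in 1 of the 12 windows, that of Socs3, and in 7.02% of all 32851 windows. The Socs3 match is shown because Socs3 was the member with the largest ratio between the groups. Of the other 64 pathway genes described below, 50 matched and 5 held the motif (10.0%, against 8.13% of all 27025 genes), and 3 of their matches are shown for comparison. Capitals mark the motif, all 4 stretches are 30 bases written 5′ to 3′ on the strand of the gene, and none overlaps an annotated exon.
Socs3, chr11:117969501-117969530, minus strand: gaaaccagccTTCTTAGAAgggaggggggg
Bcl6, chr16:23988951-23988980, minus strand: agcaaattagTTCTCAGAAttccagaggcc
Irf1, chr11:53769914-53769943, plus strand: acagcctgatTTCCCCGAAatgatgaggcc
Icam1, chr9:21015888-21015917, plus strand: ggcgcgaggtTTCCCGGAAagtggccccga
Counted from the RefSeq start, the motif of Socs3 began 154 bases upstream, that of Irf1 90 bases upstream and that of Icam1 42 bases upstream. Stat3 and Il6st had the smallest p-values of the members that passed the low-count filter, which Socs3 failed. Neither held a match in the 250 bases below, which says only that these letters are not in these windows. Both windows lie outside the annotated exons.
Stat3, chr11:100939541-100939790, minus strand: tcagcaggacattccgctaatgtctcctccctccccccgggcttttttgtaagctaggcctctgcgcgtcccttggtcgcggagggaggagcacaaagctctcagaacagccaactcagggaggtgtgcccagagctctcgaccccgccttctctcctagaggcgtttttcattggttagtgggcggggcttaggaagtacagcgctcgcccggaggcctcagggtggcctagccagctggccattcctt
Il6st, chr13:112463820-112464069, plus strand: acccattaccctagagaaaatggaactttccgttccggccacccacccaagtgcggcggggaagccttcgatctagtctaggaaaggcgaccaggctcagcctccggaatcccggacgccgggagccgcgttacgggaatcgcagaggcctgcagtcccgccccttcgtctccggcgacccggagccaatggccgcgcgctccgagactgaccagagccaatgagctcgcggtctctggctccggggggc

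Read depth was low: the libraries held 1823167 to 4827956 counts, so that 3 counts, the limit that a count of 0 allows, equalled 0.66 to 1.62 CPM, counts scaled to the size of the library. This limit covers counting error only. The summed level of 10 brown adipocyte markers was 16123 to 17893 CPM in CTR and 15612 to 17830 CPM in CAC, and each of the 10 was detected. Of the 9 tested in edgeR, 5 had a positive and 4 a negative log2 fold change, and the most abundant, Cidea and Ucp1, were at 0.18 and 0.03. None passed an adjusted p of 0.05. At an unadjusted p under 0.05, 5.93% of all genes tested were lower and 7.01% higher. Of the 9 markers, 3 were lower and 0 higher at that threshold. These were the lipid droplet protein Plin1 (log2 fold change -0.27), Cox7a1 (-0.22) and the adipogenic regulator Pparg (-0.71), with adjusted p-values of 0.192, 0.292 and 0.261. Every CAC mouse lay below every CTR mouse for Plin1 and Cox7a1, as for 336 of all 9876 genes tested. The marker that was not tested, Lep, had 50 counts in CTR and 8 in CAC. Its means were 4.11 and 0.72 CPM, and the groups overlapped. Levels are given as CPM, which is not scaled to transcript length, and are therefore compared between mice and not between genes. A fold change is the edgeR estimate of CAC over CTR on the log2 scale, and adjusted p-values are Benjamini-Hochberg values over all 9876 genes tested. The edgeR p-values set the group difference against the spread between mice, which is estimated partly from all genes tested.

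No member passed an adjusted p of 0.05, against 0.932% of all genes tested. Of the 9 members that were tested, 8 had a positive log2 fold change (50.0% of all genes did) and Jak2 had a negative one. At an unadjusted p under 0.05, edgeR listed 5 of the 9, all higher in CAC: Stat3, Il6st, Osmr, Lifr and Jak1. Over all genes this held for 7.01% in that direction and for 5.93% in the other. DESeq2 and limma also called 0 members at an adjusted p of 0.05. The median log2 fold change of the 9 was 0.30, against -4.67e-05 over all genes tested. All 4 CAC mice lay above all 4 CTR mice for 3 of the 9, Stat3, Il6st and Il11ra1, against 3.64% of all genes. Socs3 failed the low-count filter and was examined separately.

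**Figure D1:**
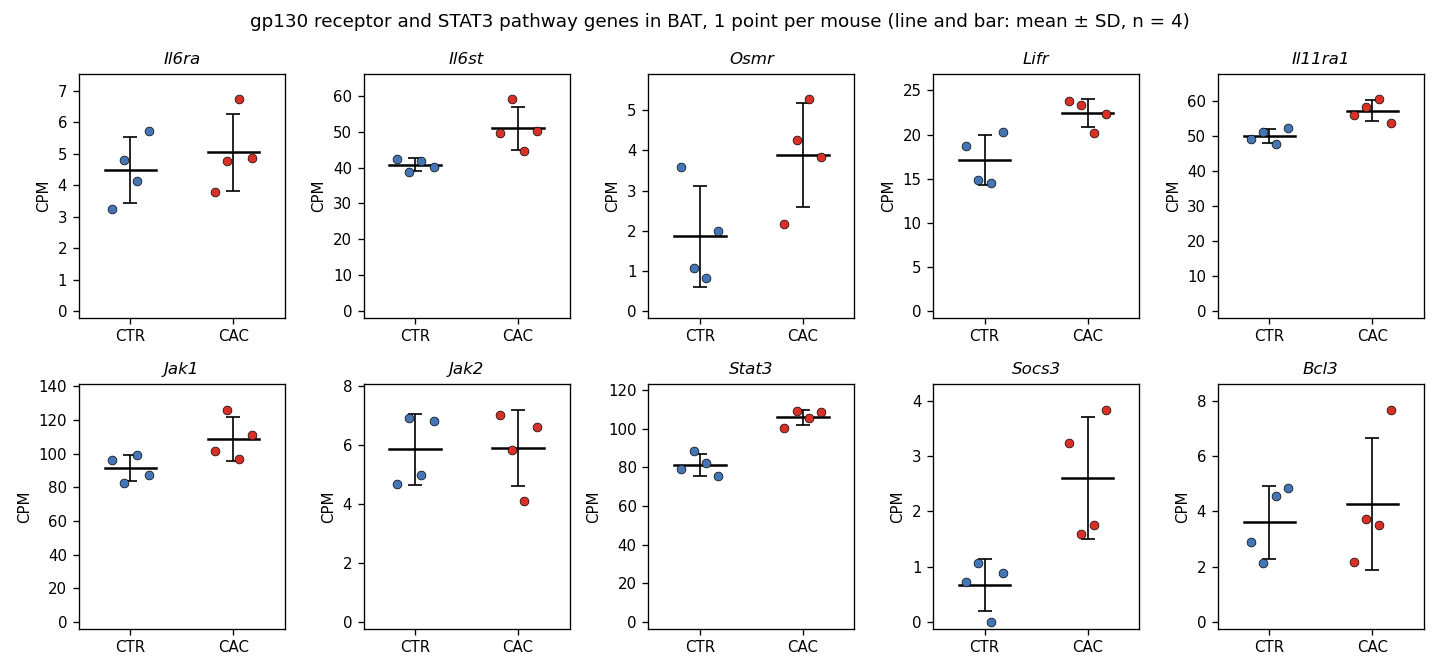
Level of each member in BAT in CPM (vertical axes, from 0, scaled per gene) in CTR (blue) and CAC (red); each point is 1 mouse, the line is the mean and the bar the SD of 4 mice. The groups do not overlap for Stat3, Il6st, Il11ra1 and Socs3, and the points of Jak2, Il6ra and Bcl3 are mixed.

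Stat3 (ENSMUSG00000004040, chr11:100885098-100939540, minus strand), the transcription factor on which the pathway converges, had the smallest p of the tested members. It was at 79.2, 88.4, 82.2 and 75.4 CPM in the CTR mice and at 101, 109, 105 and 108 CPM in the CAC mice. The highest CTR mouse thus lay below the lowest CAC mouse, and the spread within each group was small. The mean was 81.3 ± 5.50 CPM in the control group and 106 ± 3.87 CPM with tumours (SD, n = 4). This gave a fold change of 0.38 on the log2 scale, with a standard error of 0.10 and a 95% interval of 0.16 to 0.60 (edgeR unadjusted p = 0.00149, adjusted p = 0.0881). The last 72 bases of Stat3 overlap the end of Stat5a, which lies on the opposite strand, and Stat3 carried fractions of reads in 5 libraries. Stat5a itself went from a mean of 20.2 ± 2.26 CPM in control mice to 16.9 ± 1.57 CPM in CAC mice (SD, n = 4), which is -0.26 on the log2 scale (edgeR adjusted p = 0.547).

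Il6st (ENSMUSG00000021756, chr13:112464070-112510086, plus strand), which encodes the shared chain gp130, was at 42.5, 38.6, 41.9 and 40.1 CPM in CTR and at 49.7, 59.0, 44.5 and 50.2 CPM in CAC. The groups did not overlap, and CAC replicate 2 stood highest. The log2 fold change was 0.31 with a standard error of 0.12 and a 95% interval of 0.06 to 0.56 (edgeR unadjusted p = 0.0167, adjusted p = 0.258).

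Among the ligand-specific chains, Osmr (chr15:6813577-6874969, minus strand), the oncostatin M receptor, had the largest fold change of the tested members and few reads. It was at 3.60, 1.07, 0.83 and 1.98 CPM in CTR and at 2.16, 4.25, 5.27 and 3.83 CPM in CAC, from 25 and 41 counts in all. CTR replicate 1 lay above CAC replicate 1, and the other CAC mice lay above every CTR mouse. The log2 fold change was 1.10 with a standard error of 0.43, and its 95% interval ran from 0.22 to 1.99 (edgeR unadjusted p = 0.0169, adjusted p = 0.259). Lifr (chr15:7090614-7197489, plus strand), the receptor of leukaemia inhibitory factor and a neighbour of Osmr on the chromosome, was at 18.7, 14.9, 14.5 and 20.3 CPM in CTR and at 23.8, 23.4, 20.2 and 22.3 CPM in CAC. CTR replicate 4 and CAC replicate 3 were nearly level, and the other CAC mice lay above every CTR mouse. Its log2 fold change was 0.37 with a standard error of 0.16 (95% interval 0.03 to 0.71, edgeR unadjusted p = 0.0363, adjusted p = 0.341).

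Il11ra1 (chr4:41699989-41769474, plus strand), which encodes the IL-11 receptor chain, was at 49.3, 51.1, 47.7 and 52.5 CPM in CTR and at 56.2, 58.5, 60.7 and 53.7 CPM in CAC. The groups did not overlap, but the difference was small, with a log2 fold change of 0.19, a standard error of 0.11 and a 95% interval of -0.04 to 0.42 (edgeR adjusted p = 0.499). Its span overlaps 6 other genes and it has a near copy, Il11ra2, with 1.33 and 4.33 reads over the CTR and CAC libraries, so its count is uncertain to that extent. Il6ra (chr3:89864059-89913196, minus strand), the IL-6 receptor itself, was at 3.24, 4.79, 4.15 and 5.73 CPM in CTR and at 3.78, 4.79, 6.74 and 4.88 CPM in CAC. These values were mixed between the groups. The log2 fold change of 0.18 had a 95% interval of -0.43 to 0.79 (edgeR adjusted p = 0.858), which allows a change to 0.74 or 1.73 times the CTR level.

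The kinases differed in how well they were measured. Jak1 (chr4:101152367-101265282, minus strand), the main kinase bound to gp130, was at 96.1, 82.6, 99.2 and 87.3 CPM in CTR and at 102, 126, 96.7 and 111 CPM in CAC. CAC replicate 3 lay within the CTR range, and the other CAC mice lay above it. Its log2 fold change was 0.25 with a standard error of 0.11 (95% interval 0.02 to 0.49, edgeR unadjusted p = 0.0367, adjusted p = 0.341). Jak2 (chr19:29251828-29313080, plus strand) averaged 5.85 ± 1.19 CPM in the 4 control mice and 5.90 ± 1.29 CPM in the 4 CAC mice (SD). The control values, 4.68 to 6.92 CPM, lay inside the CAC range of 4.10 to 7.03 CPM. The log2 fold change was -0.06 with a 95% interval of -0.62 to 0.50 (edgeR adjusted p = 0.957), and the mean CPM was slightly higher in CAC, so no direction can be given.

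Socs3 (chr11:117966079-117970047, minus strand), the feedback inhibitor that binds gp130 and its kinases, had the largest ratio of the 10 members and the fewest reads. The CTR libraries held 2, 4, 0 and 4 counts and the CAC libraries 6, 3, 6 and 11. These are 0.72, 1.07, 0.00 and 0.88 CPM in CTR against 3.24, 1.60, 1.76 and 3.83 CPM in CAC. All CAC mice thus lay above all CTR mice on the CPM scale. The CTR mean of 0.67 ± 0.47 CPM compares with a CAC mean of 2.61 ± 1.10 CPM (SD, n = 4), and an exact two-sided permutation test gave p = 0.0286, the smallest that 4 against 4 mice allow. From the summed counts of 10 and 26, the CAC level was 3.50 times the CTR level with a 95% counting interval of 1.63 to 8.13. Here and below, a counting interval pools the reads of each group and leaves out the spread between mice. In an edgeR fit without the low-count filter, the adjusted p of Socs3 was 0.138 and that of Stat3 was 0.143.

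Bcl3 (chr7:19808462-19822770, minus strand), an atypical inhibitor of NF-kB that acts as a coactivator in the nucleus, was at 2.88, 2.13, 4.56 and 4.85 CPM in CTR and at 2.16, 3.72, 3.52 and 7.67 CPM in CAC. Only CAC replicate 4 lay above the CTR range. The log2 fold change was 0.30 with a 95% interval of -0.49 to 1.08 (edgeR adjusted p = 0.806). Bcl3 overlaps the antisense genes Gm16174 and Gm16175 and carried fractions of reads in 4 libraries; the strand setting of the counting is not given in the sources used here.

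**Figure D2:**
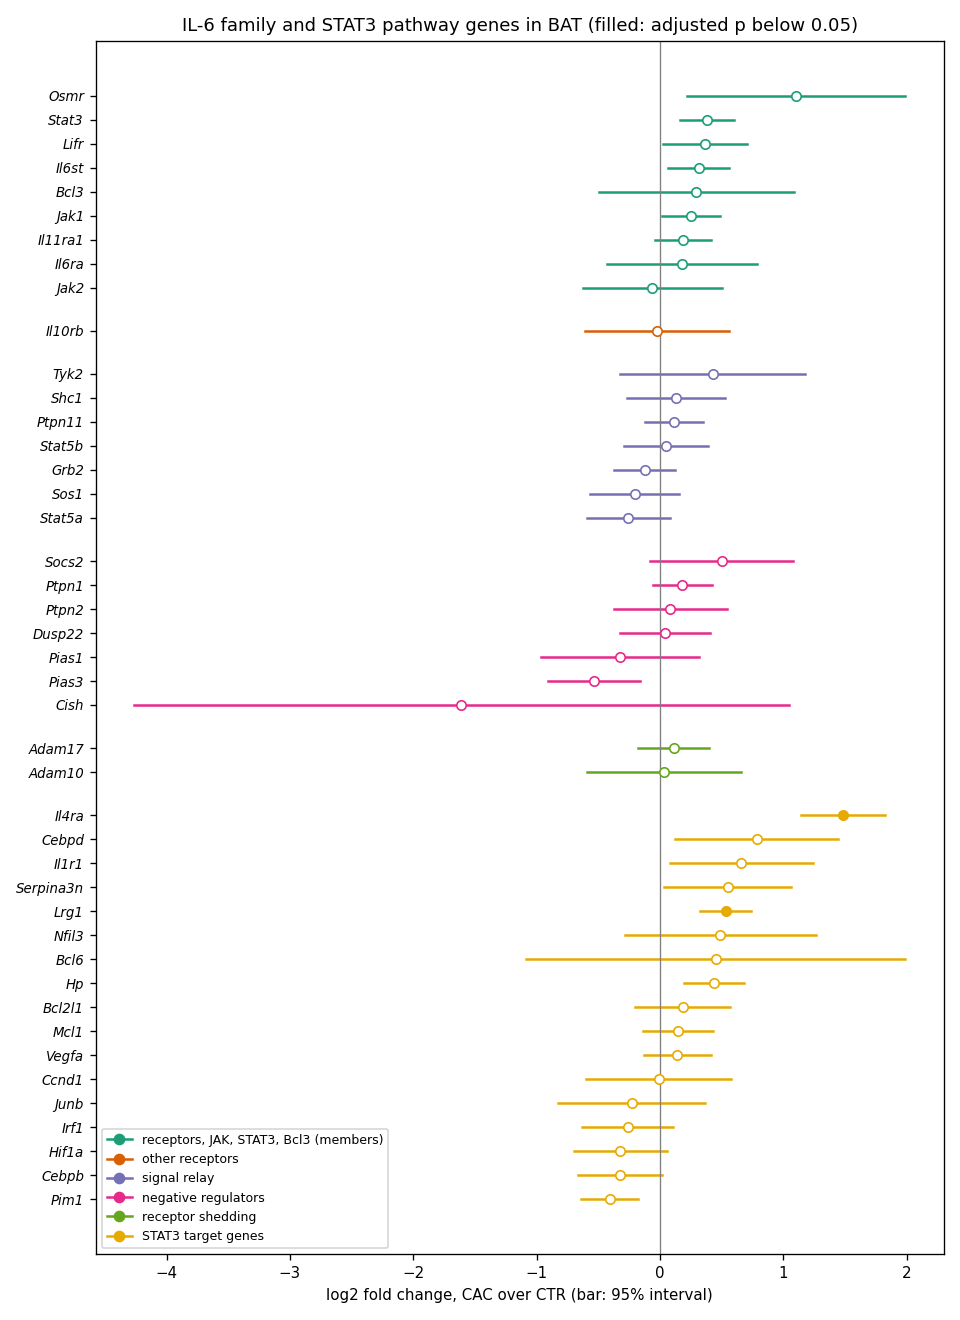
Log2 fold change of CAC over CTR (horizontal axis) with its 95% interval (bar) for the 9 tested members and for tested genes of the other pathway lists (1 of them is not shown), coloured by role; filled points have an adjusted p under 0.05. The filled points are those of Il4ra at 1.48 and Lrg1 at 0.53, and the members lie between -0.06 and 1.10.

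The other pathway genes were grouped by role into 64 genes, of which 35 had enough reads to be tested. Of these, 22 were higher and 13 lower in CAC, the median log2 fold change was 0.11, and 2 rose at an adjusted p of 0.05, Il4ra and Lrg1. None fell at that threshold, and DESeq2 and limma called Il4ra and Lrg1 and no other of the 64. At an unadjusted p under 0.05, 6 were higher and 2 lower. Over all genes tested, 50.0% were higher, 0.932% were called in either direction, and at the unadjusted threshold 7.01% were higher and 5.93% lower, so the count of lower pathway genes was near the background.

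The ligands had few reads in BAT RNA at this depth, and 0 of the 10 had enough for the test. Il27, Il11 and Cntf had reads in each of the 8 libraries, and the other 7 had at most 7 reads over all of them. Il6 had 0 counts in every library, which allows up to 0.66 to 1.62 CPM. Osm, which encodes oncostatin M, had 0 counts in CTR and 1 in CAC, and Lif had 0 and 2. Ctf1 (cardiotrophin 1) had 1.5 and 5.5 reads, Clcf1 1 and 4, and Ebi3 2.5 and 3.5. Il11 had 15.5 reads in CTR and 16.5 in CAC, and Cntf had 11.5 and 12. Il27 had 30.5 reads in CTR and 14 in CAC, and its 4 CAC mice, at 1.06 to 2.09 CPM, lay just below the 4 CTR mice, at 2.13 to 2.90 CPM. The ratio of its summed counts, 0.63 with a 95% counting interval of 0.31 to 1.22, includes 1. Its reads were fractions in 7 libraries and it overlaps Apobr on the other strand.

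Of 7 further receptors, only Il10rb, a chain of the IL-10 receptor, was tested, and its log2 fold change was -0.02 (edgeR, adjusted p = 1.00). Csf3r, the granulocyte colony-stimulating factor receptor of neutrophils, had 3 counts in CTR and 13 in CAC, a ratio of 5.83 with a 95% counting interval of 1.60 to 31.9. CAC replicate 1 held 6 of the 13 counts, and CAC replicates 2, 3 and 4 held 1, 4 and 2. The adjusted p of Csf3r was 0.270 in edgeR without the low-count filter. Cntfr had 20 and 7 counts, and Lepr, the leptin receptor, 0 and 2.

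Of 9 genes that relay the signal beside or below STAT3, 8 were tested and 0 passed an adjusted p of 0.05, nor did any reach an unadjusted p of 0.05 in edgeR. The log2 fold changes ran from -0.26 for Stat5a to 0.43 for Tyk2, a janus kinase. The sheddases Adam17 and Adam10, which cut the IL-6 receptor from the cell surface, had log2 fold changes of 0.11 and 0.03.

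Of 10 negative regulators, 7 were tested, with 4 higher and 3 lower in CAC, and 0 passed an adjusted p of 0.05. Pias3, which binds STAT3 and blocks its contact with DNA, was the gene with an unadjusted p under 0.05. Pias3 was at 14.4, 18.1, 15.4 and 16.8 CPM in CTR and at 10.8, 10.6, 12.6 and 10.5 CPM in CAC. Every CAC mouse lay below every CTR mouse, and the log2 fold change was -0.53 with a standard error of 0.18 (edgeR unadjusted p = 0.00753, adjusted p = 0.182). Cish, a SOCS-family inhibitor, had the lowest log2 fold change, -1.61 with a 95% interval of -4.26 to 1.04. It was at 40.5 CPM in CTR replicate 2, at 2.88 to 5.51 CPM in the other CTR mice and at 2.66 to 7.57 CPM in CAC.

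The STAT3 target list held 26 genes, of which 17 were tested, 11 higher and 6 lower. It includes acute-phase genes, and Lrg1 and Hp are among genes that the study picked partly from these libraries, so their direction is not independent evidence. The whole list, Il4ra included, was written with earlier results of these data known, so its counts are not independent evidence either. Il4ra (chr7:125552120-125579474, plus strand), the receptor chain for IL-4 and IL-13, had the largest log2 fold change of the 17 tested targets. It was at 24.1, 26.6, 15.4 and 20.3 CPM in CTR and at 73.5, 69.7, 56.0 and 47.8 CPM in CAC. The lowest CAC mouse stood well above the highest CTR mouse, and the log2 fold change was 1.48 with a standard error of 0.17 (edgeR adjusted p = 3.19e-05). Il4ra overlaps the antisense gene Gm44876, and all of its reads were whole. Lrg1 (chr17:56119678-56122001, minus strand), a secreted acute-phase glycoprotein, was at 272, 266, 341 and 314 CPM in CTR and at 466, 411, 397 and 449 CPM in CAC. The groups did not overlap, and the log2 fold change was 0.53 with a standard error of 0.10 (edgeR adjusted p = 0.0104). Without CTR replicate 1 the adjusted p of Lrg1 was 0.0664.

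Further targets did not pass the adjusted threshold. Hp, which encodes haptoglobin, the plasma protein that binds free haemoglobin, ranged over 183 to 236 CPM in control mice and 225 to 341 CPM in CAC mice. The log2 fold change was 0.44 (edgeR adjusted p = 0.0844). The transcription factor Cebpd, the interleukin-1 receptor Il1r1 and the acute-phase serpin Serpina3n had log2 fold changes of 0.79, 0.66 and 0.55, with adjusted p-values of 0.282, 0.310 and 0.344. Without CAC replicate 4 the value of Serpina3n was 0.26 (adjusted p = 0.728). Pim1, a kinase commonly used as a STAT readout, pointed the other way, with 279, 237, 229 and 260 CPM in CTR and 160, 175, 228 and 192 CPM in CAC. CAC replicate 3 lay just under the lowest CTR mouse, and the log2 fold change was -0.41 with a standard error of 0.11 (edgeR unadjusted p = 0.00149, adjusted p = 0.0881). Myc and Tnfaip3 had 0 counts in every library.

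Lcn2, which encodes the iron-binding acute-phase protein lipocalin 2 that is also stored in neutrophil granules, was too low for the filter. The CTR libraries together held 1.5 reads, and the CAC libraries held 10, 4, 13 and 5. With the CTR sum taken as 2 counts, the CAC level was 21.5 times the CTR level with a 95% counting interval of 5.50 to 186, and the adjusted p was 6.53e-06 in edgeR without the filter. Lcn2 is outside the rule for named genes and was chosen after its values were seen. None of Il4ra, Lrg1, Pim1 and Lcn2 held the TTCNNNGAA motif in the windows searched, and the tested motif-bearing genes Bcl6 and Irf1 had log2 fold changes of 0.45 and -0.26 (adjusted p = 0.840 and 0.570).

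**Figure D3:**
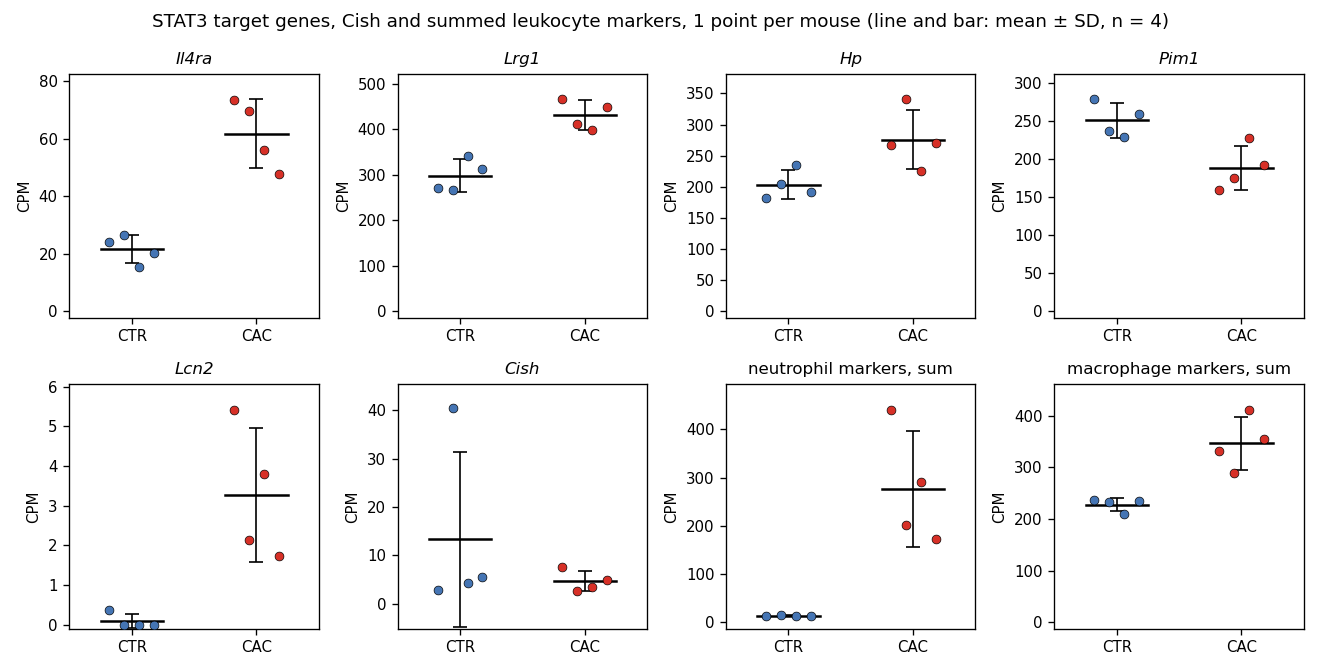
Levels in CPM (vertical axes, scaled per panel) of 5 STAT3 target genes, of Cish, and of the summed neutrophil and macrophage markers in CTR (blue) and CAC (red); each point is 1 mouse, the line is the mean and the bar the SD of 4 mice. Il4ra and Lrg1 do not overlap between groups, Cish stands at 40.5 CPM in 1 CTR mouse, and the neutrophil sum is 12.0 to 14.6 CPM in CTR and 173 to 441 CPM in CAC.

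Markers of other cell types moved with the groups. The sum of 10 neutrophil markers was 12.0 to 14.6 CPM in CTR and 173 to 441 CPM in CAC, and 3 of the 4 that were tested rose, led by S100a8 with a log2 fold change of 5.57 and S100a9 with 5.45. These S100 genes made up 89.6% of the CAC sum, and neither is restricted to neutrophils. The other 8 markers, summed without them after the data were seen, were at 6.84 to 8.79 CPM in CTR and 18.5 to 36.8 CPM in CAC. Among them Retnlg rose by 3.40 on the log2 scale (edgeR adjusted p = 0.0155). Cxcr2 had 0 reads in CTR and 18.5 in CAC, Ngp 2 and 23, Mmp8 1 and 10, and Ly6g 0 and 2. The sum of 10 macrophage markers was 209 to 236 CPM in CTR and 289 to 411 CPM in CAC, and all 8 tested had a positive log2 fold change. Of the 2 not tested, Adgre1 had 10 counts in CTR and 16 in CAC, and Mpeg1 had 15 and 8. The complement genes C1qa and C1qb rose, by 0.83 and 0.98 on the log2 scale (edgeR adjusted p = 0.00103 and 0.00137), and Lyz2 and Csf1r, at 0.41 and 0.48, did not pass. Skeletal muscle markers summed to 1330 to 3328 CPM in CTR and 2851 to 5539 CPM in CAC, and erythroid markers to 6180 to 19266 CPM and 14631 to 44312 CPM. In edgeR 0 of 10 and 0 of 5 were called. At an unadjusted p under 0.05, 6 and 4 were higher, against 7.01% of all genes tested. The part of these cells in the values of Stat3, Il6st, Socs3, Il4ra, Lcn2 and Csf3r was not tested. In bulk tissue, a change in the number of cells of a type and a change in RNA per cell cannot be told apart. The endothelial sum, at 1333 to 1357 CPM in CTR and 1134 to 1604 CPM in CAC, and the fibroblast, smooth muscle, lymphocyte and Schwann cell sums overlapped between the groups. Of the tested endothelial markers 4 were higher and 5 lower in CAC, and of the fibroblast and progenitor markers 6 and 4. The split was 5 and 4 for smooth muscle and 2 and 2 for Schwann cells, and no lymphocyte marker was tested. Within these lists edgeR called 2 genes at an adjusted p under 0.05, against 0.932% of all genes tested. Both were higher with every CAC mouse above every CTR mouse, which held for 3.64% of all genes. They were Ly6a of the fibroblast and progenitor list, with a log2 fold change of 1.02 (adjusted p = 0.000238), and Esam of the endothelial list, with 0.62 (adjusted p = 0.0201). The endothelial sum is carried by Egfl7, whose means were 940 CPM in control mice and 927 CPM in CAC mice.

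The genes whose levels ran most like those of Stat3 over the 8 libraries were Gm44646 (Pearson r = 0.98), Pdlim7 (0.97) and Vcam1 (0.97). Those most like Il6st were Nepn (0.97), Fbxo32 (0.97) and Mthfd2l (0.97). These correlations describe 8 libraries that fall into 2 groups, so genes that differ between the groups rank high. Of the 6 genes, Gm44646 passed the adjusted threshold, and its log2 fold change was 1.40 (edgeR, adjusted p = 0.000936). Fbxo32, the muscle atrophy ubiquitin ligase atrogin-1, averaged 10.8 CPM in control mice and 17.2 CPM in CAC mice, or 0.65 on the log2 scale (edgeR adjusted p = 0.168). All 10 skeletal muscle markers also had a positive log2 fold change, and the part of muscle RNA in the Fbxo32 values was not tested.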

How the data were processed

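RNA of BAT from 4 CTR and 4 CAC mice was sequenced as single-end reads, and groups follow the labels. The authors checked reads with FastQC 0.11.9, aligned them to mm10 with HISAT2 2.2.1 and assigned them to genes by featureCounts, multi-mapped reads included. The deposited table of 56953 genes holds expected counts, that is counts with fractions of reads and no normalization (25.1% to 28.4% of nonzero values are not whole). A further deposited table holds a signal for 24792 genes, counts divided by 1 size factor per library.

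Counts were rounded and fitted with edgeR 4.0.16 in R 4.3.3 (filterByExpr, TMM, robust quasi-likelihood test, no covariate), and 9876 genes were tested. CPM used the TMM library sizes. DESeq2 1.42.0, limma 3.58.1 on log2 of the deposited signal plus 1, other filters and scalings, a replicate block and leaving out each library were alternatives. Scripts were tested on simulated data. Counting intervals are exact 95% intervals on the reads summed over each group, and they leave out the spread between mice. Coordinates are GRCm38 in GENCODE M21, matched by ID without version (91.4% of IDs).

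Named genes are all members, all ligands, pathway genes with an unadjusted p under 0.05 and the 2 most abundant markers of a list described. They also include the 3 tested genes with the highest Pearson r of log2 CPM (prior count of 2) to Stat3 and to Il6st. These 2 were the tested members with the smallest p. Any other gene named was picked with its values in view. Results of 2 listed pathway genes are counted but not reported here by name. The members and lists were chosen with earlier results of these data known.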

Additional observations from a re-analysis of the deposited data

Results flagged for a closer look

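Among 110 groups of 4 values (members, tested pathway genes and marker sums), 6 held a library far from the other 3, where chance gives about 1 in 20, or 5.5. Cish, a SOCS-family gene, was at 40.5 CPM in CTR replicate 2 and at 2.88 to 5.51 CPM in the other CTR mice. Tyk2 was at 6.61 CPM in CTR replicate 4 and at 2.88 to 3.20 CPM in the others. Pias3 was at 12.6 CPM in CAC replicate 3 and at 10.5 to 10.8 CPM in the others, still under every CTR mouse. The brown adipocyte marker sum was 17893 CPM in CTR replicate 4 against 16123 to 16308 CPM. The macrophage marker sum was 209 CPM in CTR replicate 3 against 232 to 236 CPM. The Schwann cell marker sum was 441 CPM in CAC replicate 1 against 290 to 302 CPM.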

How the results depend on the processing

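At an adjusted p under 0.1 the members called were 1, Stat3, and at an unadjusted p under 0.05 they were 5, while the other 16 alternatives gave 0. Over its alternatives the adjusted p of Stat3 ran from 0.0672 to 0.231 and its log2 fold change from 0.35 to 0.42. The other pathway genes called were 5 with no low-count filter (Hp, Il4ra, Lcn2, Lrg1 and Pim1), 4 at an adjusted p under 0.1 and 8 at an unadjusted p under 0.05. Leaving out each library in turn gave 1 (without CTR replicate 1) to 4 (without CAC replicate 3). Il4ra passed in all 16 of its alternatives. Il6ra, Bcl3 and Jak2 changed sign under some settings. When single libraries were dropped, Il6ra ran from -0.026 (without CAC replicate 3) to 0.35, that of Bcl3 from -0.17 (without CAC replicate 4) to 0.54 and that of Jak2 from -0.15 to 0.11, above 0 without CTR replicate 2, CTR replicate 4 or CAC replicate 3. Jak2 was also at 0.0066 with limma on the deposited signal. The cause was not tested. The difference in mean CPM of Socs3 was 1.94, and 1.53 to 2.28 when each library was left out, with an exact permutation p of 0.0571 each time, the smallest that 4 against 3 allow. Osmr, Il6ra, Bcl3, Cebpd and Il1r1 had no value under the filter of 10 counts in every library. Over all genes, 42 (without CTR replicate 1) to 351 (no low-count filter) were called, against 92. Same-numbered CTR and CAC samples did not deviate together (r of -0.02 to 0.04, with 2 of 4 correlating best with their own number), and the replicate block gave 0 members and 140 genes in all. Among the members, Socs3 and Osmr had the fewest counts over all libraries, 36 and 66.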

Other observations

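Bcl6, a transcriptional repressor, varied widely among the CTR mice, at 75.9, 13.1, 61.0 and 16.3 CPM, and was at 73.5, 38.8, 52.7 and 53.0 CPM in the CAC mice. The CTR mice with low Bcl6 were replicates 2 and 4. CTR replicate 2 was also the mouse with 40.5 CPM of Cish, and Socs2, another SOCS-family gene, was at 5.33 CPM in that mouse and at 6.61 to 13.7 CPM in the other CTR mice. These genes were chosen after their values were seen.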
